A study of Rattus norvegicus with 9 samples.

Results

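Arteries of the spontaneously hypertensive rat (SHR), an inbred strain in which raised blood pressure is inherited, were compared with arteries of the Wistar-Kyoto rat (WKY), a normotensive strain of the same Wistar origin. The comparison asked which genes of the arterial wall differ in genetic hypertension. RNA of untreated male rats of both strains, aged 16 weeks, was taken from a first-order branch of the saphenous artery, a small muscular artery of the hind limb, and measured on Affymetrix RAE230A arrays. Each strain had 3 arrays, and every array held RNA pooled from 2 or 3 rats. These are 6 of the 9 arrays of the series. The other 3, of male WKY rats aged 16 weeks that received ACTH, the pituitary hormone that drives the adrenal cortex, for 4 weeks, entered the fit, so that the 3 groups shared 1 estimate of the spread, and their values are given beside those of SHR. The sample labels give the ACTH dose as 0.1 mg/kg per day, and the study's methods give another dose. SHR and WKY are different inbred strains, so raised pressure and any other difference between the strains cannot be told apart here. Of 15866 probesets that are not array controls, 9099 were kept, namely those whose third-highest signal over the 9 arrays reached 44.3.

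An artery of this kind is a tube of smooth muscle, lined by endothelium and wrapped in a fibroblast-rich adventitia. Smooth muscle tone and wall structure set its resistance, and both are known to differ between SHR and WKY. On the array a gene is read by 1 or several probesets, each a group of short oligonucleotides that match a stretch of the transcript, mostly near its 3' end. A base that differs between strains under an oligonucleotide can change a signal without a change in the amount of RNA. For this reason the other kept probesets of a called gene are given or counted beside it. All values are signals of the MAS5 algorithm, changes are SHR minus WKY on the log2 scale with their standard error (n = 3 arrays per group), and a probeset is called at an adjusted p under 0.05 in limma. Signals are listed in the order of replicates 1, 2 and 3. In these bulk samples fewer cells of a type and less RNA per cell cannot be told apart.

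The arrays were alike in overall signal, with a median of 52.2 to 57.2 over the 6 arrays, but differed in 2 respects that run partly along the strains. The 3'/5' signal ratio of GAPDH, which rises as RNA shortens, was 4.91 to 5.99 in WKY and 3.57 to 5.16 in SHR, and the same ratio of beta-actin was 9.77 to 13.6 in WKY and 8.35 to 9.14 in SHR. The files record 4 scan days: SHR 1, SHR 2 and WKY 2 shared a day, SHR 3 was scanned with the ACTH arrays, and WKY 1 and WKY 3 were each scanned on a day of their own. Pearson's r of log2 signals was 0.951 to 0.972 within SHR and 0.956 to 0.960 within WKY, and 0.917 to 0.960 between them. All 27 of the 27 smooth muscle genes of the list on the array passed the filter. So did 28 of 33 endothelial and 19 of 21 fibroblast and adventitia genes, where 9099 of 15866 probesets passed. These counts describe the samples and do not test the label of the tissue.

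In SHR arteries 88 probesets were called higher and 98 lower than in WKY, which is 0.967% and 1.08% of those kept and 2.04% together. In the fit of ACTH-treated against untreated WKY 1.21% of the probesets were called. The median called increase was 2.18-fold and the median decrease 2.11-fold. The 186 called probesets hold 144 named genes, and fitted changes of more than 2 on the log2 scale were found for 12 of the increases and 15 of the decreases. No called probeset had overlapping SHR and WKY arrays. With 3 arrays per group this follows largely from the calling and adds no support to it, and the share over all kept probesets was not counted. The number of calls rested in part on single arrays: it was 102 without SHR 2, 109 without WKY 1, 115 without ACTH 1, 118 without SHR 1 and 119 without WKY 3, and 81 of the 186 were called in each of the 9 fits that left out 1 array. For each gene described in the following paragraphs, the number of these 9 fits in which it kept its call is given where it is under 9. With scan day as a block, which leaves 2 SHR arrays against 1 WKY array, 26 probesets were called, 22 of them among the 186, and with the GAPDH ratio as a covariate 34 were called.

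**Figure D1:**
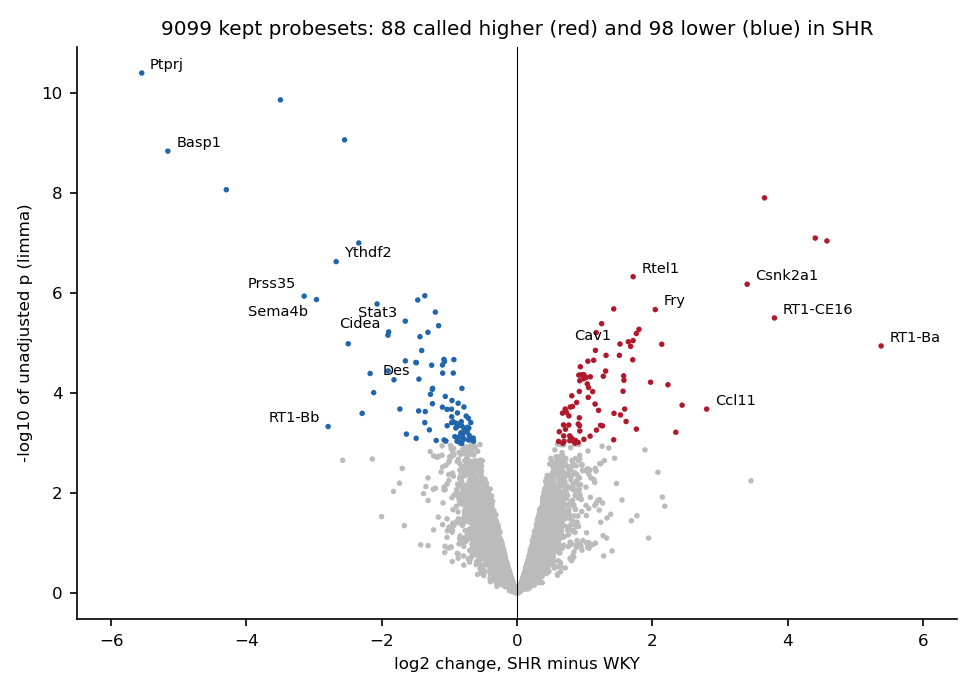
Each point is 1 of the 9099 kept probesets; the horizontal axis is the log2 change from WKY to SHR (3 arrays each) and the vertical axis the unadjusted limma p on a -log10 scale. Red points (88) were called higher and blue points (98) lower in SHR; Ptprj lies farthest to the left at -5.55, a value that rests on SHR arrays under background, and RT1-Ba farthest to the right at 5.38, with 1 of 3 WKY arrays above background.

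A very large decrease was that of Ptprj, a receptor tyrosine phosphatase that acts on growth factor receptors. Its signals were 152, 157 and 125 in WKY, 164, 163 and 141 after ACTH and 3.88, 2.27 and 3.3 in SHR. All 3 SHR arrays lay under the lower quartile of their own signals, here taken as background, so the fold is a bound, at least 9.61-fold lower (fitted log2 change -5.55 ± 0.20, adjusted p = 3.65e-07). Basp1, a membrane-bound protein of growing nerve endings that also acts as a transcriptional corepressor, fell in the same way, from 204, 194 and 111 to 3.84, 6.49 and 3.85 (at least 10.9-fold, adjusted p = 3.33e-06). The study's tables also assign to Basp1 a probeset that the platform annotation leaves without a name. This one (1398350_at) fell from 838, 628 and 738 to 65.2, 66.6 and 62.0, a log2 change of -3.50 ± 0.14. Basp1 was also lower after ACTH, at 48.1, 40.9 and 43.9 and 433, 406 and 446 on the respective probesets (-1.89 ± 0.26, adjusted p = 0.00853, and -0.77 ± 0.14, adjusted p = 0.0312).

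Several further genes stood at a small share of their WKY level in SHR. Prss35, a secreted protein of the serine protease family, measured 647, 285 and 299.5 in WKY and 50.1, 35.9 and 44.1 in SHR, an 8.86-fold decrease (-3.15 ± 0.32, adjusted p = 0.000753). Sema4b, a membrane semaphorin, fell from 54.0, 106 and 42.7 to 6.47, 9.05 and 8.75, at least 4.17-fold. Arhgap32, a GTPase-activating protein, fell from 48.4, 52.8 and 48.9 to 10.6, 16.8 and 7.63 (-2.17 ± 0.32, adjusted p = 0.00629), with 1 SHR array above background. None of the 3 passed the test after ACTH, with changes of -0.19 ± 0.32, -0.30 ± 0.30 and -0.12 ± 0.32 (adjusted p = 0.873, 0.767 and 0.929). Sorl1, an intracellular sorting receptor, fell on 2 of its 3 probesets (-1.65 ± 0.23 and -0.69 ± 0.15, adjusted p = 0.00435 and 0.0466), and did not pass the test on the other. The second of these kept its call in 1 of the 9 fits. Tnmd, tenomodulin of tendon and other dense connective tissue (-1.50 ± 0.21), and Cntn2, a neuronal adhesion protein (-1.47 ± 0.15), were lower too (adjusted p = 0.00442 and 0.000787), Cntn2 being named after its values were seen. Both were also called lower after ACTH, at -1.13 ± 0.21 and -0.91 ± 0.15 (adjusted p = 0.0312 and 0.0189). So were the 2 Sorl1 probesets that fell, at -1.85 ± 0.23 and -1.09 ± 0.15 (adjusted p = 0.00668 and 0.00852).

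Several of the large increases outside the histocompatibility complex were on probesets at or near background in WKY. Csnk2a1, a catalytic subunit of casein kinase 2, measured 4.1, 4.52 and 5.64 in WKY and 50.0, 48.9 and 50.2 in SHR, at least 3.53-fold higher (adjusted p = 0.000508), and was not called on its 2 other kept probesets. Creg1, a glycoprotein of lysosomes, rose from 4.15, 20.2 and 7.69 to 48.7, 46.0 and 45.8 (2.44 ± 0.43, adjusted p = 0.0173), with 1 WKY array above background. Enpp1, an ectoenzyme that makes pyrophosphate from ATP, rose from 13.5, 17.2 and 9.24 to 68.1, 44.7 and 60.1 (2.14 ± 0.27, adjusted p = 0.00268), with 2 WKY arrays above background. Fry, a large protein of microtubule and cell shape control, was well measured in both strains, at 115, 119.7 and 136 against 553, 449.5 and 523 (4.12-fold, adjusted p = 0.00103). Rtel1, a helicase that guards telomeres, which was also well measured, rose from 45.2, 60.9 and 57.5 to 173, 171 and 189 (1.71 ± 0.16, adjusted p = 0.000392). Car3, a cytosolic carbonic anhydrase, rose from 18.5, 86.4 and 27.6 to 157, 192 and 192 (2.34 ± 0.49, adjusted p = 0.0375) and Inmt, an indole N-methyltransferase, from 56.2, 101 and 59.0 to 240.3, 245 and 240.2 (1.80 ± 0.21, adjusted p = 0.00195). The other Car3 probeset gave 1.77 ± 0.70 (adjusted p = 0.248). Both genes were called higher after ACTH as well, Car3 by 2.39 ± 0.49 and Inmt by 1.40 ± 0.21 (adjusted p = 0.0461 and 0.0128). Smpd3, a neutral sphingomyelinase, rose in SHR and after ACTH (1.76 ± 0.36 and 2.21 ± 0.36, adjusted p = 0.0343 and 0.0182). Of these, Creg1 kept its call in 6 of the 9 fits, Smpd3 in 3 and Car3 in 2.

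A large increase was that of probeset 1371776_at, to which the platform annotation gives no name. The study's PCR table lists it as Pik3r1, the regulatory subunit of phosphatidylinositol kinase. Its signals were 55.9, 51.3 and 47.1 in WKY, 56.1, 60.1 and 55.9 after ACTH and 997, 513 and 529 in SHR, a 12.6-fold increase (adjusted p = 1.91e-05). By quantitative PCR the study reported Pik3r1 as significantly higher than in WKY, both in SHR and after ACTH. The PCR increase in SHR was much smaller than that of the array. After ACTH the probeset changed by 0.16 ± 0.23 (adjusted p = 0.849), and the study counted array and PCR as not matching there. The probeset that the annotation names Pik3r1 (1370114_a_at) did not follow it, at 45.1, 73.8 and 47.3 in WKY and 22.2, 31.3 and 38.8 in SHR (-0.85 ± 0.24, adjusted p = 0.116). Other large changes also belong to probesets without a gene name: 1390722_at rose from 64.5, 22.5 and 45.5 to 1108, 1003 and 811, 1373053_at from 11.1, 19.8 and 6.09 to 264, 214 and 224, and 1375601_at fell from 51.4, 50.3 and 58.0 to 1.65, 3.81 and 3.13. In 1373053_at 1 of 3 WKY arrays lay above background, and in 1375601_at no SHR array did, so that its fold is at least 3.55. After ACTH these 3 changed by -0.36 ± 0.35, 0.94 ± 0.34 and -0.28 ± 0.26 (adjusted p = 0.761, 0.271 and 0.739). In all, 38 of the 186 called probesets have no single gene symbol.

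**Figure D2:**
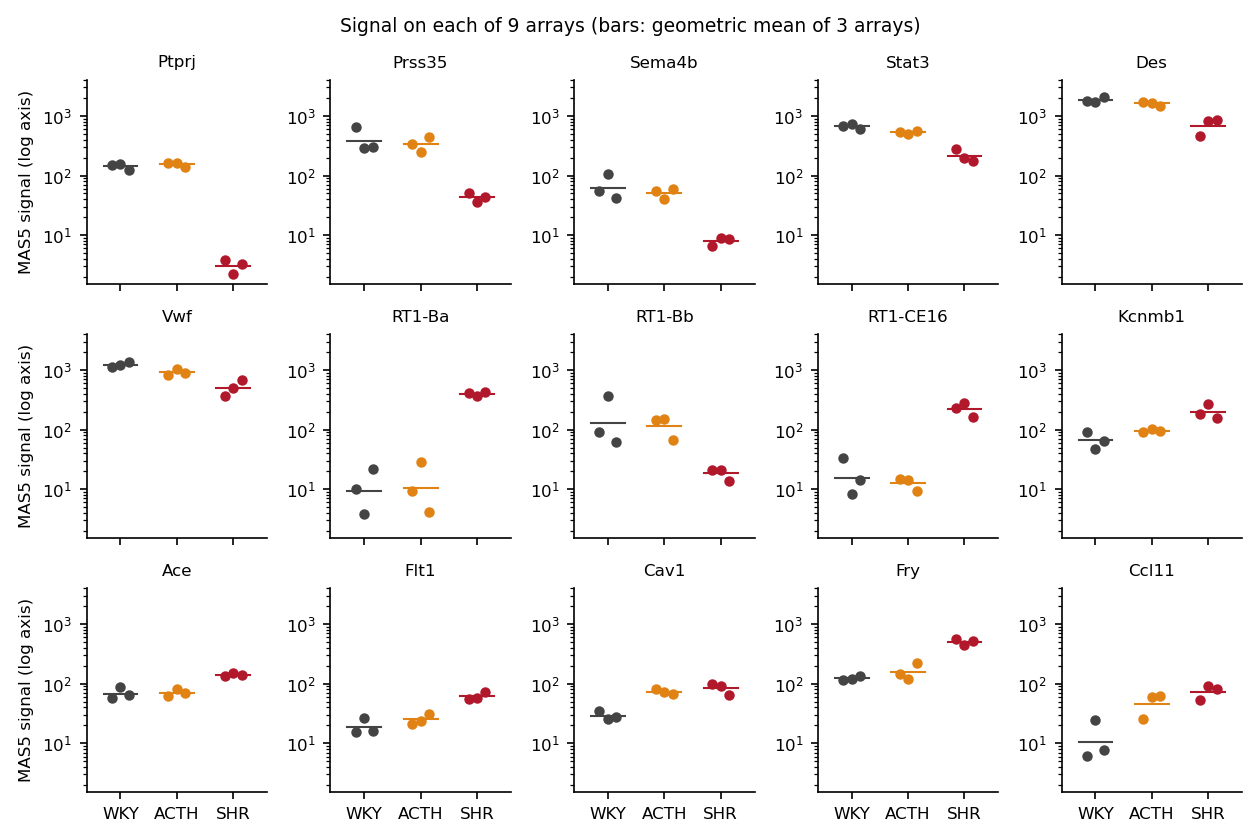
Signal (log axis) on each of the 9 arrays for 15 called probesets; points are arrays, grouped as WKY, ACTH-treated WKY and SHR, and bars are geometric means of 3 arrays. In every panel the SHR points lie clear of the WKY points, and for Ptprj, Stat3, RT1-Ba and Ace the ACTH points lie with WKY or near it.

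Genes of the major histocompatibility complex moved in both directions. Its class I molecules show peptides to cytotoxic T cells and its class II molecules, pairs of an alpha and a beta chain, show them to helper T cells; the complex is highly polymorphic between rat strains. Of 26 kept probesets of 21 genes of the list 3 were called higher (RT1-Ba, RT1-CE16 and RT1-A3) and that of RT1-Bb lower, where 2.04% of all kept probesets were called, and the median change was 0.06, against -0.00 over all 6898 named genes. This median was -0.36 with scan day as a block and -0.05 without WKY 1. The promoter windows of these 4 genes are shown because all hold the letters of the same regulatory element although the genes did not move the same way. Each is the 250 bases before the annotated start, 5' to 3' on the strand of the gene, from RefSeq on build GRCr8, which represents neither SHR nor WKY; capitals mark the letters CTGATTGG or their reverse complement CCAATCAG, the core of the Y box bound by the factor NF-Y.
RT1-Ba (chr20:4576807-4577056, plus strand): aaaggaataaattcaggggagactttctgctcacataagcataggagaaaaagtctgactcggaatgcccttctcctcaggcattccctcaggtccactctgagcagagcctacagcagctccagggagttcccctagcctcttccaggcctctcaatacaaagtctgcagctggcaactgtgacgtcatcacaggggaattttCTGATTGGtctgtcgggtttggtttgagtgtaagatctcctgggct
RT1-Bb (chr20:4604119-4604368, minus strand): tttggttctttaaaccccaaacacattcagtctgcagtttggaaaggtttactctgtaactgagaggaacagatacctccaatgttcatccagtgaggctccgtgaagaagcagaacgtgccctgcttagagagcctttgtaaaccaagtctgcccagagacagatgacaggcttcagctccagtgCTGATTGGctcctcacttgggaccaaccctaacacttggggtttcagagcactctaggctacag
RT1-CE16 (chr20:3265444-3265693, minus strand): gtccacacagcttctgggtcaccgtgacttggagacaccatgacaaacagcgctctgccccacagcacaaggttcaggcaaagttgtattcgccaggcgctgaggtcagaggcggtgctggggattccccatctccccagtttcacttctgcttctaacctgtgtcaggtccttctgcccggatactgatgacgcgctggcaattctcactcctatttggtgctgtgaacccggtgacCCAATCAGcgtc
RT1-A3 (chr20:4849201-4849450, plus strand): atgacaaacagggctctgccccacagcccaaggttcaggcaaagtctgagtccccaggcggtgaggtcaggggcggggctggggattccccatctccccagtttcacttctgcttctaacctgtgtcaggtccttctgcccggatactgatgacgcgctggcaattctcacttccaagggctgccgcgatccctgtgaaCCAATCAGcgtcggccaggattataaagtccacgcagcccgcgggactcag
These letters stand in 3.19% of all 33469 promoter windows of this length, searched on both strands, in all 4 windows shown and in 4 of the 16 other kept genes of the list that have a window. A match in these letters is a description and not a test of the element.

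RT1-Ba encodes the alpha chain and RT1-Bb the beta chain of the same class II molecule, and they lie next to each other among the tested genes. RT1-Ba (1377334_at) measured 10.2, 3.77 and 21.9 in WKY and 403, 360.1 and 419 in SHR (5.38 ± 0.69, adjusted p = 0.0028), with 1 of 3 WKY arrays above background. Its other probeset (1370822_at) gave 56.1, 114 and 55.9 and 53.0, 7.96 and 54.7 (-1.32 ± 0.76, adjusted p = 0.42). RT1-Bb fell from 92.4, 363 and 61.7 to 21.4, 20.8 and 14.0 (-2.79 ± 0.56, adjusted p = 0.0319), and WKY 2 was far above the other WKY arrays on it. The alpha chain was thus higher on 1 of its 2 probesets while the beta chain was lower. RT1-CE16, a class I gene, rose from 32.9, 8.32 and 14.1 to 229, 282 and 163 (3.80 ± 0.42, adjusted p = 0.00137), with 1 of 3 WKY arrays above background, and RT1-A3, another class I gene, from 32.3, 38.7 and 42.3 to 75.9, 74.5 and 71.8 (0.98 ± 0.15, adjusted p = 0.00708). After ACTH, in rats of the WKY strain, these 4 genes changed by 0.14 ± 0.69, -0.16 ± 0.56, -0.31 ± 0.42 and 0.31 ± 0.15 (adjusted p = 0.96, 0.946, 0.836 and 0.451). RT1-Bb kept its call in 4 of the 9 fits. Further probesets that the study's tables place in class I, under RT1-Aw2, have no single name in the annotation and carry the suffix of probes shared with other sequences. Of these, 1388071_x_at fell from 1930.3, 1760.3 and 1996 to 313, 321 and 336 (-2.55 ± 0.12, adjusted p = 2.64e-06) and 1369110_x_at rose from 161, 131 and 99.7 to 423, 437 and 444 (1.76 ± 0.21, adjusted p = 0.00203).

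Of the smooth muscle markers, mostly contractile genes, 1 of 39 probesets was called lower and 0 higher, near the 2.04% called of all kept probesets, and the median change of the 27 genes was -0.06 (0.08 with scan day as a block and 0.02 without WKY 1). Des, desmin, the intermediate filament that ties myofilaments together, fell from 1786, 1687 and 2109.7 to 459, 807 and 838 (2.74-fold, adjusted p = 0.00708), while after ACTH it was 1709.8, 1668 and 1477 (-0.20 ± 0.22). All SHR arrays lay below all others, SHR 1 the lowest. Lmod1, which nucleates actin filaments in smooth muscle, gave 716, 605 and 613 in WKY and 231, 464 and 471 in SHR, with SHR 1 again the lowest, and did not pass the test (-0.80 ± 0.25, adjusted p = 0.15). Acta1, the skeletal alpha-actin that arterial smooth muscle also expresses, rose from 574, 420.1 and 436 to 901, 919 and 858 (0.92 ± 0.15, adjusted p = 0.0105). Of the skeletal muscle markers 8 of 26 were kept, and 1 of 5 probesets of Myh1, a fast myosin heavy chain, was called lower (-0.79 ± 0.16, adjusted p = 0.0332, 1 of the 9 fits). Flnc, the actin-crosslinking filamin of muscle, which was named after its values were seen, fell from 322, 239 and 254 to 107, 112 and 164 (-1.10 ± 0.20, adjusted p = 0.0182, 6 of the 9 fits). The summed signal of the 8 skeletal muscle genes, Acta1 among them, was 1564 to 1723 in WKY and 1930 to 2112 in SHR, and its part in these results was not tested. Acta1 alone had a mean signal of 477 in WKY and 893 in SHR, and so makes up much of the difference between these sums. The summed signal of the 27 smooth muscle genes was 64174 to 75405 in WKY and 72713 to 74293 in SHR.

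Among genes that set vascular tone, the calls were of single genes. Kcnmb1 encodes the beta subunit that tunes the calcium sensitivity of the smooth muscle BK channel, and its signal rose from 92.7, 47.7 and 65.0 to 182, 265 and 154 (2.96-fold, adjusted p = 0.0105), with 90.0, 102 and 94.9 after ACTH. Atp1b1, the beta subunit of the sodium pump, rose on 1 probeset from 46.6, 41.4 and 69.1 to 136, 129 and 104 (1.26 ± 0.25, adjusted p = 0.0313) and on the other from 238, 307 and 403 to 439.8, 673 and 680.5 without passing the test (0.93 ± 0.22, adjusted p = 0.0687). Slc12a2, the sodium-potassium-chloride cotransporter NKCC1, rose by 0.67 ± 0.15 (adjusted p = 0.0497), and Clcn3, a chloride transporter of endosomes, fell on 1 of 3 probesets (-0.83 ± 0.18, adjusted p = 0.0495). Over the 52 kept genes of ion channels and calcium handling the median change was 0.00, and 2 probesets were higher and 1 lower of 64, against 0.967% and 1.08% of all kept probesets. Gucy1b1, the beta subunit of the nitric oxide receptor guanylate cyclase, fell on 1 probeset from 446, 338 and 368 to 201, 210.3 and 184 (-0.94 ± 0.18, adjusted p = 0.0287). Its other probeset and both probesets of the alpha subunit Gucy1a1 were not called, at -0.48 ± 0.29, -0.29 ± 0.16 and -0.83 ± 0.23. Slc12a2 kept its call in 1 of the 9 fits, Clcn3 in 1, Gucy1b1 in 3 and Atp1b1 in 4.

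Rgs5 and Ace were the called genes of the G-protein and renin-angiotensin lists. Rgs5, a GTPase-activating protein that shortens signalling through Gq and Gi in mural cells, fell from 711, 509 and 782 to 390.4, 324 and 299 (1.96-fold, adjusted p = 0.0238), and the ACTH arrays stood at 346, 387 and 386 (-0.82 ± 0.18, adjusted p = 0.0689). The study reported Rgs2, its relative that acts on Gq, as significantly lower in SHR by quantitative PCR. Here it was not called on either probeset. The brighter gave 940.2, 914 and 980.3 in WKY and 932, 736 and 715 in SHR, and the dimmer 146, 109 and 249 and 182, 159 and 224. Of 32 kept probesets of G-protein subunits and RGS proteins 1 was lower and 0 were higher, where 2.04% of all kept probesets were called. Ace, the angiotensin-converting enzyme, rose on 1 probeset (1370028_at) from 57.0, 86.7 and 64.6 to 134, 153 and 138 (2.07-fold, adjusted p = 0.013), and its other probeset (1387791_at) gave 261, 285 and 241 and 204, 276 and 337 (0.03 ± 0.19). The renin-angiotensin list had a median change of 0.52 over 9 genes, each read by its brightest probeset, and of 0.37 after ACTH. In SHR 8 of the 9 lay above 0, where all named genes had a median of -0.00 and 49.8% of them lay above 0. Of 12 kept probesets of this list 1 was called, against 2.04% of all kept probesets. Agtr1b, an angiotensin II receptor, and Mtus1, an angiotensin type 2 receptor-interacting protein, did not pass the test (0.89 ± 0.25, adjusted p = 0.106, and 0.91 ± 0.20, adjusted p = 0.0507). Rgs5 kept its call in 5 of the 9 fits and Ace in 6. None of the 14 named genes of endothelin and vasoactive receptors was called in limma. Of their 14 probesets 3 had an unadjusted p under 0.05, against 1493 of all 9099 kept probesets. A probeset without a name in the annotation, which the study's tables list as the endothelin receptor Ednrb, was called. It rose from 39.8, 38.8 and 45.8 to 67.7, 71.6 and 66.3 (0.73 ± 0.13, adjusted p = 0.0208, 5 of the 9 fits).

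Cav1, caveolin-1, forms caveolae, the flask-shaped pits of the membrane in which receptors and nitric oxide synthase gather. Its probeset 1370131_at measured 35.1, 25.3 and 27.4 in WKY, 80.3, 73.6 and 66.1 after ACTH and 97.8, 91.0 and 64.4 in SHR. All SHR and ACTH arrays lay above all WKY arrays, with a change of 1.52 ± 0.19 in SHR (adjusted p = 0.00268) and 1.33 ± 0.19 after ACTH (adjusted p = 0.0108). The other Cav1 probeset, 1372111_at, gave 3130.2, 1639.9 and 2119 in WKY, 2128, 2018 and 2281 after ACTH and 2136, 1876 and 2055 in SHR, with overlapping groups (-0.13 ± 0.21, adjusted p = 0.793). The difference between the 2 probesets changed from WKY to SHR by 1.65 ± 0.23 (adjusted p = 0.00224) and from WKY to ACTH by 1.39 ± 0.23 (adjusted p = 0.0397). The study reported Cav1 as significantly higher by quantitative PCR in both SHR and ACTH-treated rats, and more caveolin-1 protein and caveolae in both. Of 13 kept probesets of 11 genes of nitric oxide and caveolae no other was called, where 2.04% of all kept probesets were called. Nos3, endothelial nitric oxide synthase, measured 79.7, 92.9 and 122 in WKY and 71.8, 151 and 147 in SHR.

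Endothelial genes moved in both directions, 4 higher and 2 lower of 32 probesets of 28 genes (0.967% and 1.08% of all kept probesets), with a median of 0.28 and 22 of the 28 genes above 0 (49.8% of all named genes were above 0). Flt1, a receptor of vascular endothelial growth factor, rose from 15.3, 26.7 and 16.2 to 54.3, 58.5 and 72.4 (1.71 ± 0.24, adjusted p = 0.00435), with 2 WKY arrays above background, and Kdr, the other main receptor of that factor, gave 78.5, 95.5 and 83.4 and 205, 122 and 152 and just missed the threshold (0.87 ± 0.19, adjusted p = 0.0507). Emcn, the sialomucin endomucin, rose from 186, 238 and 134 to 460.1, 399 and 355 (2.22-fold, adjusted p = 0.0167) and Erg, a transcription factor of endothelial identity, from 95.7, 83.3 and 95.4 to 182, 209 and 155 (1.98-fold, adjusted p = 0.00645). Thbd, thrombomodulin, rose from 152, 225 and 229 to 415, 355 and 346, and Cd93, its neighbour in the genome and a glycoprotein of endothelium and monocytes, from 309, 284 and 255 to 746, 599 and 526 (adjusted p = 0.0489 and 0.00435). The called Thbd probeset was called higher after ACTH too (1.00 ± 0.20, adjusted p = 0.0425). The other Thbd probeset gave 0.56 ± 0.17 in SHR (adjusted p = 0.146). Vwf, von Willebrand factor, went the other way, from 1105, 1197 and 1349.6 to 366, 504 and 674 (-1.28 ± 0.21, adjusted p = 0.0116). Icam2, an adhesion molecule for leukocytes, fell on 1 probeset and not on the other, as described below. The summed signal of the 28 genes was 11039 to 12917 in WKY and 13094 to 13564 in SHR, and its part in these results was not tested. Thbd kept its call in 1 of the 9 fits, Emcn in 6 and Vwf in 8.

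Coagulation genes called higher, beside Thbd, were Tfpi, the inhibitor of tissue factor, from 38.6, 46.6 and 36.4 to 143, 123 and 113 (1.64 ± 0.21, adjusted p = 0.00261), and Fgl2, a membrane prothrombinase, from 78.2, 114 and 69.4 to 209.5, 163 and 142 (0.99 ± 0.21, adjusted p = 0.0465). Thbd and Tfpi oppose clotting and Fgl2 promotes it, while Vwf, which tethers platelets, was the 1 member called lower. The second Tfpi probeset gave 46.9, 85.9 and 20.2 and 95.2, 72.0 and 78.3, with WKY 2 inside the SHR range (0.91 ± 0.40, adjusted p = 0.298). Over 16 genes of this list the median change was 0.10. Fgl2 kept its call in 2 of the 9 fits.

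Matrix genes that were called were mostly lower in SHR. Matricellular and adhesion genes had 0 higher and 5 lower of 43 probesets, against 1.08% lower over all kept probesets, and a median of -0.12. Tnc, tenascin C of remodelling matrix, fell from 209, 110.4 and 126 to 48.9, 46.7 and 29.0 (3.53-fold, adjusted p = 0.00718). Smoc1, a calcium-binding matrix protein, fell from 142, 146 and 135 to 42.4, 51.4 and 64.6 (2.71-fold, adjusted p = 0.0022), and Ecm1, extracellular matrix protein 1, from 1511, 1667 and 1396 to 619, 686 and 741 (2.23-fold, adjusted p = 0.00171). Sdc1, the heparan sulphate proteoglycan syndecan-1, fell on both probesets, from 109, 114 and 89.3 to 41.1, 62.3 and 50.1 and from 332, 311 and 388 to 181, 217 and 222 (adjusted p = 0.019 and 0.0326). In Tnc, both Sdc1 probesets and Ecm1 every ACTH array also lay below every WKY array. The changes were -1.18 ± 0.28, -0.70 ± 0.19, -0.63 ± 0.15 and -0.68 ± 0.13, of which Ecm1 passed the test (adjusted p = 0.0887, 0.13, 0.082 and 0.0417). Lox, lysyl oxidase, which crosslinks collagen and elastin, fell from 863, 731 and 881 to 567, 454 and 464 (-0.74 ± 0.15, adjusted p = 0.0372); its other probeset gave -0.83 ± 0.36 (adjusted p = 0.285). P3h3, a prolyl hydroxylase of collagen, fell from 757, 857 and 774 to 284, 343 and 302 (-1.36 ± 0.14, adjusted p = 0.000753) and was named after its values were seen. In P3h3 and the called Lox probeset every ACTH array lay below every WKY array as well. The changes after ACTH were -0.84 ± 0.14 and -0.54 ± 0.15, of which P3h3 passed the test (adjusted p = 0.0188 and 0.155). None of 26 collagen probesets of 18 genes was called in limma, and their median was -0.08. Of these 26, 10 had an unadjusted p under 0.05, a larger share than the 1493 of all 9099 kept probesets. Of 23 kept probesets of the metalloproteinase list 1 was called, where 2.04% of all kept probesets were called. It was that of Adam23, a disintegrin without protease activity, which rose from 53.7, 47.8 and 43.7 to 116, 74.5 and 88.1 (0.92 ± 0.17, adjusted p = 0.0248). Lox kept its call in 3 of the 9 fits, Adam23 in 4 and the 2 Sdc1 probesets in 6 and 2.

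**Figure D3:**
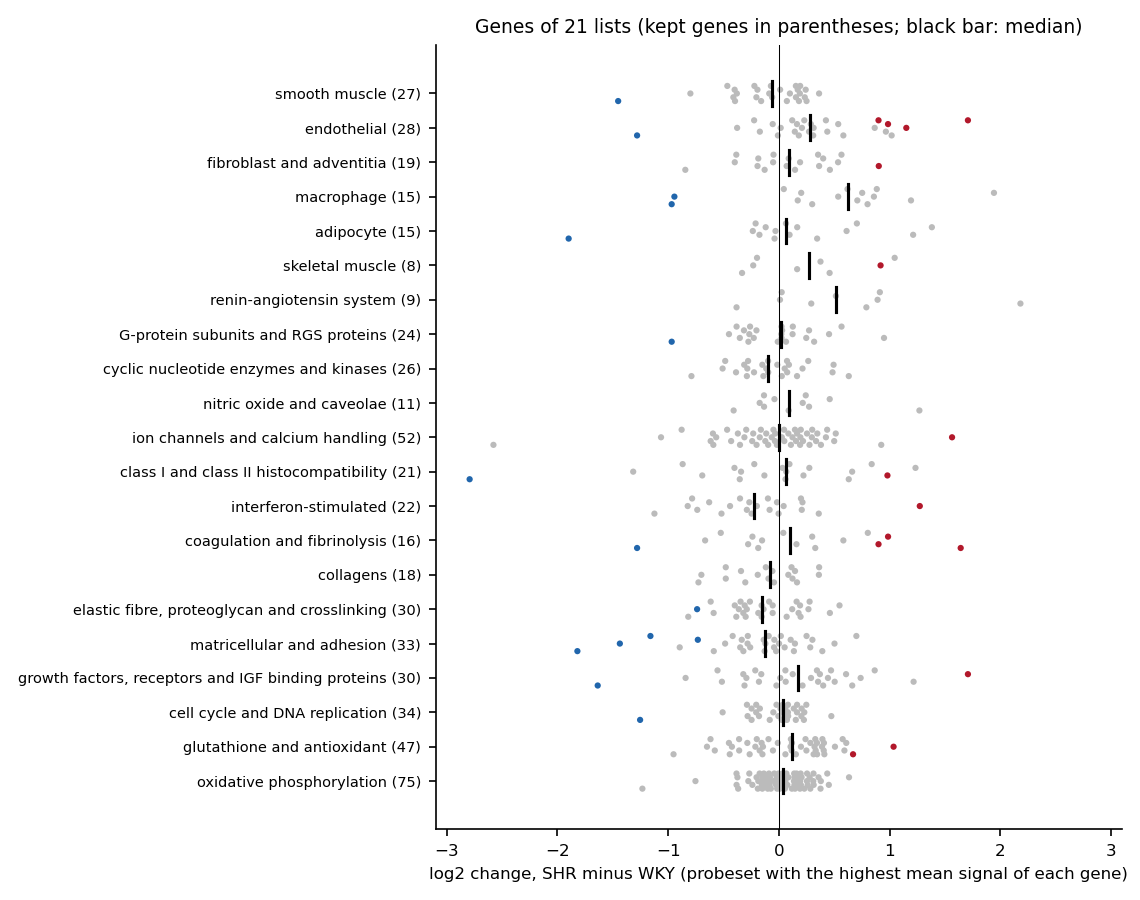
Log2 change from WKY to SHR of the genes of 21 lists, each gene by its probeset with the highest mean signal; red genes were called higher, blue genes lower, grey genes were not called, and black bars are list medians. Genes called only on another probeset (Ace, Cav1, Icam2 and RT1-Ba among them) are grey here. RT1-CE16, called higher at 3.80, lies beyond the right end of the axis and is not shown. Matricellular genes (median -0.12) hold 4 blue points and endothelial genes (median 0.28) 4 red.

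Calls among genes of growth control were of single genes, where 2.04% of all kept probesets were called. In the list of growth factors, receptors and binding proteins 1 of 38 probesets was higher and 1 lower. In that of PI3 kinase and insulin signalling 1 of 25 was higher. Of 40 MAP kinase probesets 1 was lower, and so was 1 of 38 of cell cycle and DNA replication. Igfbp2, a carrier of insulin-like growth factors, fell from 475, 407 and 434 to 75.8, 245 and 150.3 (-1.64 ± 0.34, adjusted p = 0.04), and SHR 1 was the lowest. Cdkn1a, the cyclin-dependent kinase inhibitor p21, fell from 368, 562 and 465 to 149, 208 and 228 (2.38-fold, adjusted p = 0.00982) and was the 1 called among the 34 genes of cell cycle and DNA replication. Stat3, a transcription factor of cytokine and growth factor signalling, fell on its brighter probeset from 687, 726 and 593 to 283, 195 and 172 (-1.65 ± 0.19, adjusted p = 0.00152). The dimmer Stat3 probeset gave 227, 216 and 216 in WKY and 125, 241 and 175 in SHR (-0.33 ± 0.21, adjusted p = 0.454), and the difference between the probesets did not pass the test (adjusted p = 0.0643). Klf6, a zinc finger transcription factor of the immediate early list, fell on 1 of 2 probesets (-0.75 ± 0.14, adjusted p = 0.0233), and Map4k2, a kinase upstream of the stress-activated kinases, fell too (-0.91 ± 0.18, adjusted p = 0.0332). Minpp1, a phosphatase of inositol polyphosphates, and Rasgrp3, an activator of Ras, rose, from 114, 132 and 132 to 328, 275 and 294 and from 23.4, 28.6 and 16.7 to 102, 47.0 and 63.4 (adjusted p = 0.00163 and 0.019), Rasgrp3 being named after its values were seen. None of 40 probesets of the transforming growth factor beta list was called (median of 33 genes -0.08). Of these 40, 16 had an unadjusted p under 0.05, a larger share than the 1493 of all 9099 kept probesets. Igfbp2 and Map4k2 each kept their call in 2 of the 9 fits, Klf6 in 5 and Rasgrp3 in 7.

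Cd36 is a fatty acid transporter known to be deficient in many SHR colonies. Its probeset 1386901_at carries both Cd36 and the closely related Cd36l1 in the platform annotation, and RefSeq lists the accession behind it under Cd36. Its signals were 335, 585 and 220.4 in WKY, 786, 753 and 814 after ACTH and 79.3, 67.3 and 45.1 in SHR, a 5.64-fold decrease (-2.50 ± 0.32, adjusted p = 0.00268). A second Cd36 probeset, 1367689_a_at, gave 40.4, 37.7 and 18.9 and 72.0, 32.6 and 43.8, with overlapping groups (0.61 ± 0.35, adjusted p = 0.407). Cidea, a lipid droplet protein of fat cells, fell from 236, 268 and 361 to 53.9, 92.6 and 88.1 (3.73-fold, adjusted p = 0.00202), and Retsat, a retinol saturase active in fat cells, which was named after its values were seen, fell from 1209, 1262 and 1314 to 526, 565 and 724. Of 18 kept probesets of 15 adipocyte genes 1, that of Cidea, was called, where 2.04% of all kept probesets were called. The defining Fabp4 went the other way without passing the test (33.6, 72.6 and 10.1 against 63.2, 88.4 and 78.2, 1.38 ± 0.54). The summed signal of the adipocyte genes was 2952 to 3354 in WKY and 2610 to 3124 in SHR. No probeset of fatty acid uptake and oxidation with a single gene name was called. Of 37 such probesets 7 had an unadjusted p under 0.05, against 1493 of all 9099 kept probesets.

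Of the list of glutathione and antioxidant enzymes Gstm1 and Gstt3 were called, both higher in SHR. Gstm1, a glutathione S-transferase reported as a strain variant of stroke-prone SHR, rose from 34.5, 37.0 and 37.2 to 56.0, 57.1 and 59.8 (0.67 ± 0.12, adjusted p = 0.0211). The direction of the reported variant was not compared. After ACTH Gstm1 gave 0.48 ± 0.12 (adjusted p = 0.121). It was the 1 called of 11 kept probesets of reported strain variants. Gstt3, a further transferase, rose from 109, 134 and 112 to 208, 238 and 285 (2.05-fold, adjusted p = 0.00822). Srxn1, sulfiredoxin, which restores oxidised peroxiredoxins and is not on the list, rose from 61.2, 81.8 and 70.1 to 146, 145 and 145 (2.06-fold, adjusted p = 0.00435). Dpep1, a membrane dipeptidase that acts on glutathione breakdown products, also outside the list and named after its values were seen, fell on 1 of 2 probesets (-0.92 ± 0.20, adjusted p = 0.0432, 1 of the 9 fits). The list, of 47 genes, had 2 higher and 0 lower of 48 probesets, against 0.967% higher over all, and a median of 0.12 (-0.04 without SHR 2). In mitochondrial metabolism Glud1, glutamate dehydrogenase, and Pdha1, a subunit of pyruvate dehydrogenase, each rose on 1 of 2 probesets, from 308, 308 and 342 to 633, 648 and 553 and from 49.6, 42.2 and 45.0 to 94.1, 74.5 and 73.4 (adjusted p = 0.00503 and 0.0182). Pdha1 was called higher after ACTH too (84.8, 82.4 and 89.6, adjusted p = 0.0173). None of 77 probesets of oxidative phosphorylation was called, with a median of 0.03. Of these 77, 8 had an unadjusted p under 0.05, a smaller share than the 1493 of all 9099 kept probesets. Asah1, the acid ceramidase of lysosomes, rose on both of its probesets, from 80.1, 57.2 and 85.3 to 182, 192 and 137 and from 95.1, 59.6 and 90.3 to 134, 138 and 166 (adjusted p = 0.0197 and 0.047), and Prps2, which makes phosphoribosyl pyrophosphate for nucleotide synthesis, was called on both as well (1.58 ± 0.24 and 0.78 ± 0.14, adjusted p = 0.00724 and 0.0182); Prps2 was named after its values were seen. Gstm1 kept its call in 4 of the 9 fits, Pdha1 in 8, Asah1 in 6 and 0, and the second Prps2 probeset in 6.

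Genes of immune cells and signals showed single changes. Ccl11, the eosinophil chemokine eotaxin, rose from 6.05, 24.9 and 7.62 to 52.2, 91.2 and 81.4 (2.80 ± 0.50, adjusted p = 0.019), with WKY 2 above the other WKY arrays and the 1 of them above background, and was 25.6, 59.2 and 61.5 after ACTH (2.11 ± 0.50, adjusted p = 0.0943). Serping1, the C1 inhibitor of complement, rose from 574, 762 and 553 to 1238, 1128 and 1077 (0.88 ± 0.15, adjusted p = 0.016). Ifit1, an interferon-induced protein that binds viral RNA, rose from 34.6, 29.6 and 42.1 to 84.3, 94.0 and 76.9 (1.27 ± 0.19, adjusted p = 0.00658), though 16 of the 22 interferon-stimulated genes kept lay below 0 (median -0.22) and Mx1 and Oas1a, antiviral proteins of that list, gave -1.12 ± 0.30 and -0.78 ± 0.19 without passing the test (adjusted p = 0.0971 and 0.0638). Among macrophage markers 13 of 15 genes lay above 0, with a median of 0.62 (-0.18 with scan day as a block), yet the 2 that were called were lower: Lgmn, the lysosomal protease legumain, at 356, 316 and 344 against 199.9, 175 and 156, and Fcgr2b, the inhibitory receptor for immunoglobulin G, at 61.7, 54.2 and 47.0 against 35.5, 26.4 and 22.4 (adjusted p = 0.00629 and 0.0293). Lyz2, a lysozyme of these cells, was 230.4, 708 and 228 in WKY and 1017, 786 and 558 in SHR and did not pass (adjusted p = 0.186). Of 15 kept macrophage probesets 2 were called, against 2.04% of all kept probesets, and 49.8% of all named genes lay above 0. The summed macrophage signal overlapped, at 1198 to 2415 in WKY and 1775 to 2466 in SHR. Of 21 lymphocyte and mast cell markers 3 were kept. Ccl11 kept its call in 5 of the 9 fits, Serping1 in 5 and Fcgr2b in 4.

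Beside those of collagens, lists without a called gene were those of cholesterol synthesis, oxidative phosphorylation, fatty acid oxidation, cytosolic ribosomal proteins, circadian clock genes, Schwann cell and nerve, endothelin and vasoactive receptors, transforming growth factor beta signalling, erythrocyte and lymphocyte markers. These lists hold 3 to 77 kept probesets each. With 2.04% of all kept probesets called, lists of this size can lack a call without differing from the rest. The median changes of the lists without a call lay between -0.08 and 0.10, except in the erythrocyte and lymphocyte lists of 3 kept genes each, at 0.81 and 1.11. With scan day as a block the lymphocyte median was -0.05, and that of Schwann cell and nerve genes, at 0.05 over all arrays, was -0.62, and it was -0.13 without WKY 1 and -0.15 without WKY 3. Further called genes of the lists were Fap, a protease of activated fibroblasts (0.90 ± 0.18), Anxa3 and Anxa8, calcium-dependent phospholipid binders (1.12 ± 0.18 and -1.10 ± 0.16), Dnaja1, a cochaperone of Hsp70 (0.78 ± 0.17, and 0.69 ± 0.19 on another probeset that was not called), and Mrpl4, a protein of the mitochondrial ribosome (-0.93 ± 0.13). Myof, myoferlin of membrane repair, rose from 174, 206 and 201 to 338, 288 and 325 (0.71 ± 0.15, adjusted p = 0.0343). Myof kept its call in 2 of the 9 fits, Fap in 4 and Dnaja1 in 1.

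Genes read by more than 1 probeset offered a check on a change seen with 1 of them. Within each gene every further probeset was set against the one with the highest mean signal, and the difference of the 2 was compared between groups on the same arrays. Of 823 such pairs in 726 genes, 18 were called as changing differently between SHR and WKY (2.19%), and 2 between ACTH-treated and untreated WKY (0.243%), which are of 1 strain. At an unadjusted p under 0.05 the counts were 122 and 72, and the median absolute change of the difference was 0.25 and 0.21. Some of the 18 differed about as much after ACTH without passing the test there. Examples, named after their values were seen, are Pls3 (1.06 in SHR and 1.16 after ACTH) and Eef2k (-1.19 and -1.18). Others differed less after ACTH, such as Icam2 (-2.17 and -0.36). The 2 comparisons share the WKY arrays, so they are set side by side without a test between them. In 14 of the 18 pairs the brighter probeset changed by less than 0.5, in 16 the fitted change was greater on the dimmer one, and in 15 the 2 changes had opposite signs, some of them close to 0. Since 1 of the 18 brighter probesets was itself called and the pairs were chosen for their difference, these counts are a description. The number of called pairs was 10 without WKY 1, WKY 2 or SHR 2, 11 without WKY 3, 3 with the GAPDH ratio as a covariate and 2 with scan day as a block.

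Icam2 and Ythdf2 show the pattern among decreases. Icam2 fell on its dimmer probeset from 95.4, 106 and 135 to 50.8, 20.1 and 36.3 (-1.73 ± 0.31, adjusted p = 0.019), while the brighter gave 311, 241 and 345 in WKY and 397, 357 and 453 in SHR (0.44 ± 0.16); the difference was -2.17 ± 0.30 (adjusted p = 0.00224). The decrease kept its call in 8 of the 9 fits, losing it without WKY 3. Ythdf2, a reader of N6-methyladenosine in RNA, fell from 168, 129 and 177 to 33.6, 21.7 and 20.2 on 1 probeset and was 109.8, 149 and 172 against 98.2, 135 and 129 on the other. Epb41l1, a membrane skeleton protein, and Sorl1 gave differences of -1.50 ± 0.26 and -1.71 ± 0.34 (adjusted p = 0.0105 and 0.0251). In Sorl1 the difference after ACTH was as large, at -1.69 ± 0.34 (adjusted p = 0.0564).

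Differences called among increases included those of RT1-Ba, Csnk2a1 and Cbl, a ubiquitin ligase that ends receptor signalling (adjusted p = 0.00224, 0.00108 and 0.0105). No size is given for RT1-Ba and Csnk2a1, since 1 and 0 of their 3 WKY arrays lay above background on the called probeset; that of Cbl, with 2 of 3, was 2.16 ± 0.36. On Cbl the dimmer probeset rose from 12.2, 30.1 and 16.3 to 86.7, 70.6 and 59.0 and the brighter gave 177, 147 and 165 and 142, 141 and 144. Emp1, a tetraspan membrane protein, and Ace gave 1.10 ± 0.19 and 1.02 ± 0.23 (adjusted p = 0.0105 and 0.0423). After ACTH the difference of Ace was -0.45 ± 0.23 (adjusted p = 0.552). For these genes the direction of the transcript is not settled by the called probeset alone. Sequence of the probes and of the strains was not used here, so strain bases under the probes and unequal change of transcript ends were not tested. Of the 186 called probesets, 44 have another kept probeset of the same gene and 104 are the only one. In 33 of the 44 the brightest other probeset had a change of the same sign, less than 0.5 times as large in 13 of these, and in 11 one of the opposite sign. Of the 44, 8, those of Sorl1, Sdc1, Asah1 and Prps2, have another called one.

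**Figure D4:**
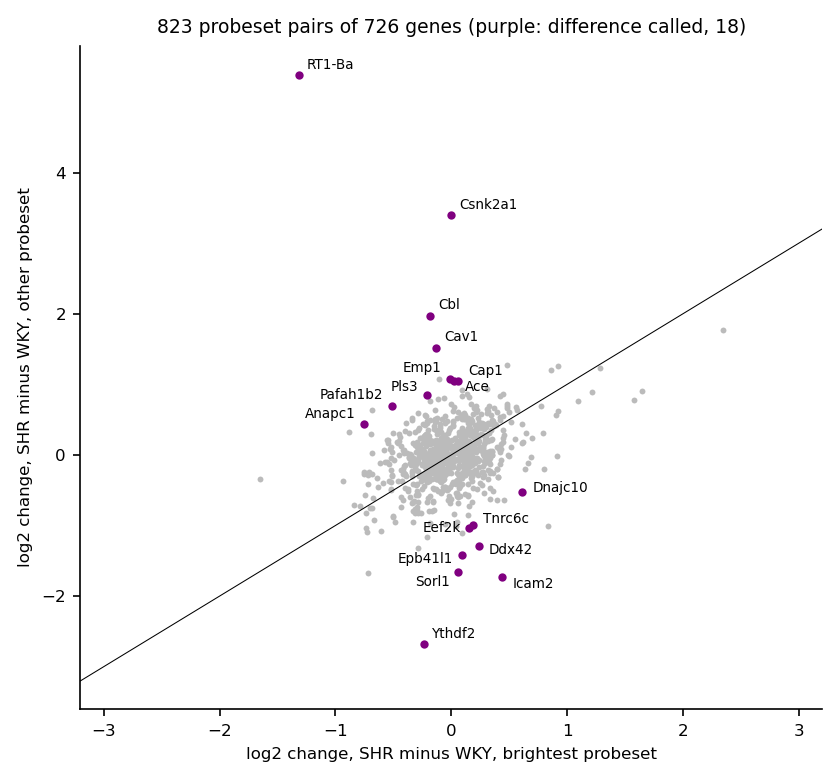
Each point is 1 of 823 probeset pairs; the horizontal axis is the log2 change from WKY to SHR on the gene's brightest probeset and the vertical axis that on another probeset of the gene, with equality on the black line. Purple points are the 18 called differences, 10 above the line and 8 below; RT1-Ba lies at -1.32 and 5.38.

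The called genes were also placed along the genome. Among 6880 tested genes in the order of the RefSeq annotation, 144 were called, and 16 of these (11.1%) had a called gene as next neighbour, against 4.14% of all tested genes. They form 8 pairs of neighbours. On the probesets with the lowest p both genes had changes of the same sign in 5 pairs, namely Thbd and Cd93, Creg1 and Ildr2, a membrane protein of the immunoglobulin family (1.68 ± 0.22), Dnajc10, a chaperone of the endoplasmic reticulum, and Frzb, an antagonist of Wnt, Adamtsl4, a matrix glycoprotein, and Ecm1, and Srxn1 and Csnk2a1. In 3 the signs were opposite, namely RT1-Ba and RT1-Bb, Icam2 and Tex2, a lipid transfer protein (1.57 ± 0.24), and Chmp1b, a protein of endosomal sorting (1.05 ± 0.17), and Cidea. By the brightest probeset of each gene the signs were the same in 6 pairs and opposite in 2, since the brighter probesets of Icam2 and RT1-Ba lay at 0.44 and -1.32 and that of Csnk2a1 at -0.00. Dnajc10 gave 0.61 ± 0.13 on the called probeset and -0.53 ± 0.18 on its other, and this difference was called (adjusted p = 0.0105), and Frzb gave 0.80 ± 0.17 and 0.32 ± 0.23. Dnajc10 and Adamtsl4 each kept their call in 1 of the 9 fits and Frzb in 0. Whether neighbouring calls share a cause was not tested.

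With the scan day as a block, which leaves only the comparison within the shared day, Ptprj, the first Basp1 probeset and Sema4b were called lower and RT1-CE16 higher (adjusted p = 0.00211, 0.00211, 0.00468 and 0.00211). Their sizes are not given, since the arrays of the lower strain on that day lay under background. The Cd36 probeset gave -3.00, and Kcnmb1, the called Cav1 probeset and Ildr2 were called as well, at 2.21, 1.90 and 1.69 (adjusted p = 0.00235, 0.037, 0.0276 and 0.0318). Des gave -1.47, Stat3 -1.63, Vwf -1.48, Ace 0.72 and Rgs5 -0.52, none of them called (adjusted p = 0.195, 0.0858, 0.113, 0.316 and 0.415). This fit rests on 1 WKY array and 3 residual degrees of freedom.

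**Figure D5:**
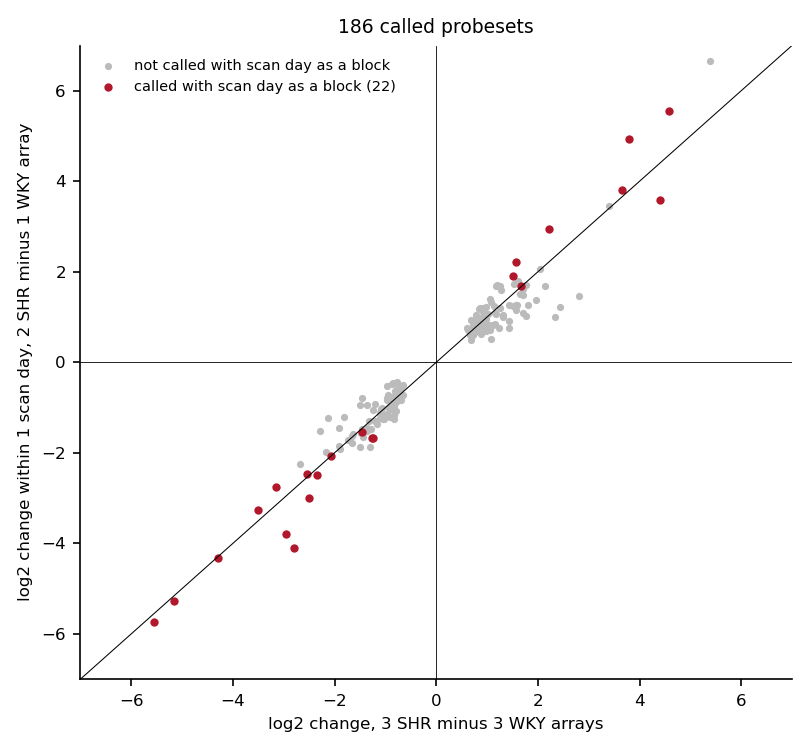
The 186 called probesets by their log2 change over all 6 arrays (horizontal axis) and within the 1 scan day that holds both strains (vertical axis, SHR 1 and SHR 2 against WKY 2), with equality on the black line. Red points (22) were called with scan day as a block. The signs are equal for each of the 186 because no called probeset has overlapping SHR and WKY arrays.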

How the data were processed

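RNA of saphenous artery branches, pooled from 2 or 3 rats per sample, was amplified in 2 rounds, with oligo(dT) priming in the first and random primers in the second, and hybridised to 9 one-colour Affymetrix RAE230A arrays, 3 per group. The deposited intensity values are MAS5 signals, which the authors scaled to a target of 150. MAS5 is also named in the submitters' processing notes. Amplification that starts at the 3' end favours probesets near the transcript end. Signals were turned to log2. Of 15866 probesets that are not controls, 9099 whose third-highest signal reached 44.3 were kept; 7721 have 1 gene symbol in the platform annotation, 220 several and 1158 none. A signal under the lower quartile of its array was taken as background, and where a whole group lay under it the fold is given as a bound against that quartile.

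Groups were taken from the sample titles. Group means of all 9 arrays were fitted in limma 3.58.1 (R 4.3.3), with SHR minus WKY as the contrast, two-sided tests and Benjamini-Hochberg adjustment over the 9099 probesets. All adjusted p-values are from limma. The difference of each further probeset of a gene from its probeset with the highest mean signal was fitted in the same way over 823 pairs. Tables were handled in Python 3.11.15. The fit was tested on simulated data. The methods of the study used one-way ANOVA with contrasts; this test without moderation was an alternative, as were other filters, normalisations and pseudocounts, array weights, the GAPDH ratio, scan day, replicate number, and leaving out each array.

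Genes were named by a rule: the 15 largest called increases and decreases with a symbol, up to 4 probesets of lowest adjusted p in each of 43 gene lists, the genes of the study's PCR table and Rgs5, neighbouring called genes, and other probesets of all of these. Genes outside it are marked in the text as named after their values were seen, and unnamed probesets were also chosen in that way. The comparison, the genes and the lists were chosen with earlier results of these data known. Samples are pools, and no source says that pools shared no rat, so p-values measure the spread between pools. The number of arrays limits the precision. Detection calls were not used.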

Additional observations from a re-analysis of the deposited data

How the results depend on the processing

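In place of 186 called probesets and 18 called probeset pairs, the fit over all probesets that are not controls called 72 and 4, the GAPDH ratio as a covariate 34 and 3, scan day as a block 26 and 2, and the SHR and WKY arrays alone 97 and 10. The methods' tests called 500 and 42 at the study's unadjusted thresholds, and the methods' contrast after Benjamini-Hochberg adjustment 90 and 8. Leaving out 1 array gave 102 to 214 called probesets and 10 to 18 called pairs. Same-numbered WKY and SHR samples did not deviate together (correlations of -0.018 to 0.035), so the replicate number was not taken as a pairing; with the replicate block 158 probesets and 14 pairs were called. Under the other alternatives, among them quantile normalisation, median centring and array weights, both counts stayed within 1.5 times. The median change of all probesets lay between -0.026 and 0.024 in every setting that gives one.

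Of the 96 called probesets whose values are given, Ptprj, Prss35 and 4 unnamed probesets, those assigned to Pik3r1 and Basp1 among them, were called in each of the 23 alternatives. Sema4b, Cntn2, the named Basp1 probeset and 2 unnamed ones were called in the 22 that tested them, as their mean signals lay under 100. Direction changed in 4 probesets that had not been called. The brighter Ace probeset was -0.27 with scan day as a block, and without 1 array it lay between -0.14 (without SHR 3) and 0.22, with -0.034 without WKY 3. The brighter Cav1 probeset was 0.29 with scan day as a block, and without 1 array it lay between -0.35 and 0.12 (without WKY 1). The dimmer Rgs2 probeset lay between -0.033 (without WKY 2) and 0.56 without 1 array, and the second Tfpi probeset was -0.053 with scan day as a block. Of 43 list medians 28 changed sign in at least 1 alternative. The cause of these changes was not tested, except that scan day as a block leaves 1 WKY array and the fit of SHR and WKY alone has fewer arrays. Probesets with signals near background carry the largest uncertainty in the fold.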
